A study of Mus musculus with 144 samples.

Results

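Natural killer (NK) cells carry the receptors encoded by the 9 genes Ncr1, Klrd1, Klrc1, Klrc2, Klrk1, Klrb1c, Klre1, Klrg1 and Klri2 on their surface. Their RNA was measured in blood from C57BL/J6 males, which were 7 weeks old on arrival and housed singly. Each mouse received a single dose by pharyngeal aspiration: MWCNT (multi-walled carbon nanotubes) at 1, 10, 40 or 80 µg, crocidolite asbestos at 120 µg, or only the dispersion medium (DM) in which both fibres were suspended, a buffered saline with glucose, mouse serum albumin and a phospholipid. Blood came from different animals at 1, 6 and 12 months, which made 18 groups of 6 to 9 mice, with 35, 41 and 40 exposed mice at the 3 times and 7, 8 and 8 DM mice. Each gene was represented by its brightest probe set among those naming that gene alone, and each of the 9 had 1 such probe set, so the 9 genes were 9 of 22180 (23521 probe sets). Mice were older at later months, so time after aspiration, age and time of collection cannot be told apart. In blood, fewer NK cells and less receptor RNA per cell cannot be told apart either, and the labels give no cell counts.

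NK cells are lymphocytes that kill infected, stressed or transformed cells without prior priming. Whether one attacks is set by the balance of activating receptors, which signal through adaptor proteins such as DAP12 and DAP10, and inhibitory receptors, which recruit phosphatases when they bind MHC class I molecules of healthy cells. In the mouse most of the lectin-like receptors lie side by side on chromosome 6, in a cluster called the NK gene complex, and several of them are also found on subsets of T cells.

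Ncr1, which encodes the activating receptor NKp46 and is used to identify NK cells, was the only member outside that chromosome, at 4337715 to 4345184 of chromosome 7 (assembly GRCm38.p6). The other 8 lay on chromosome 6 between 122270596, where Klrg1 begins, and 129740484, where Klri2 ends, and 6 of them (Klre1, Klrd1, Klrk1, Klrc2, Klrc1 and Klri2) stood between 129559365 and 129740484. RefSeq promoter windows, from 250 bases before to 50 after a start site, matched 6 of the 9 genes (Ncr1, Klrk1, Klrc1, Klrc2, Klrb1c and Klre1). The letters TGTGGT, the core that RUNX factors of lymphocytes recognise, were searched on both strands and found in 8 of the 9 windows of these genes (some overlap), with at least 1 window in 6 of the 6, against 16.7% of all 32544 windows. The letters GGTGTGA, the core of a T-box site, searched likewise, were found in 0 of the 9, against 3.95% of all windows. A match of letters is a description and not a bound site, and no match says only that these letters are not in the window. The windows of 4 receptors whose levels differ in their course below are shown 5′ to 3′ along the gene (GRCm38.p6), with TGTGGT or its complement ACCACA in capitals.

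Ncr1, chr7:4337465-4337764, plus strand: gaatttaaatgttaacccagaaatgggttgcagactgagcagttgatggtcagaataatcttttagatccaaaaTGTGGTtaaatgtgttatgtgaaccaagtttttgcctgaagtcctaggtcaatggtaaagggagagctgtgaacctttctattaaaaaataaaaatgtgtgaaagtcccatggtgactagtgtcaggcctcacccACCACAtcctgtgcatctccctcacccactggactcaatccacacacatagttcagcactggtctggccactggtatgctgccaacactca
Klrk1, chr6:129623815-129624114, minus strand: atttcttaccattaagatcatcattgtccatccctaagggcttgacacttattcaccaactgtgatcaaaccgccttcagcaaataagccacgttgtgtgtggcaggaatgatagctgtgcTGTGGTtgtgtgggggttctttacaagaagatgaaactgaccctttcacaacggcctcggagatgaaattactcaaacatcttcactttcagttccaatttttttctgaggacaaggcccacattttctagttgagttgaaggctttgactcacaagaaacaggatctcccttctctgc
Klrc1, chr6:129678924-129679223, minus strand: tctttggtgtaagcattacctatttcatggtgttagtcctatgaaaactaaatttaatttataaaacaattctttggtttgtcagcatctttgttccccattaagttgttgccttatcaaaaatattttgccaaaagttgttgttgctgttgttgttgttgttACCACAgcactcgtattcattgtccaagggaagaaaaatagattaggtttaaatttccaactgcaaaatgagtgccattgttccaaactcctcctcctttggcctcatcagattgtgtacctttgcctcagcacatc
Klrc2, chr6:129660547-129660846, minus strand: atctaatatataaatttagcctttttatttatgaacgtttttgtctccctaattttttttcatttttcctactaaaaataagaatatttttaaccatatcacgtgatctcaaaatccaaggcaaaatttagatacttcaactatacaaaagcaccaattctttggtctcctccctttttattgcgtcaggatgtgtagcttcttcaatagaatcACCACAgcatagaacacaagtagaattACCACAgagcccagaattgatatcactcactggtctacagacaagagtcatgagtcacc

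Counted from the start site, the capitals begin at -176 and -41 in Ncr1, at -87 in Klrc1 and at -36 and -9 in Klrc2, and Klrk1 holds 1 copy. Each of the 6 genes with a window holds these letters, so no comparison with genes that lack them was possible. Their part in the levels was not tested.

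Values are log2 expression from robust multi-array averaging (RMA), in which a difference of 1 is a change of 2-fold. They do not compare levels between genes, because probe sets differ in brightness. As a guide to what each probe set could show, its mean over all mice was set against 1108 olfactory receptor probe sets, which blood is not known to use. Ncr1 (mean 4.78) and Klrd1 (4.56) were brighter than 100% of them. Klri2 (3.05), Klrk1 (2.89), Klrc1 (2.82), Klrg1 (2.55), Klre1 (2.48) and Klrb1c (2.16) were brighter than 97.8% to 99.5%. Klrc2, at 1.48, was brighter than 89% and lay below the median of all tested probe sets, 1.58, so its probe set stood close to background. Klrc1 and Klrc2 are close copies, and whether probes of one read the other was not tested.

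The mean of the 9 genes was highest 1 month after aspiration and lower later, in exposed mice and in DM mice. Averaged over the 9 genes, the 6 groups of 1 month took the 6 highest places among the 18 groups, with means from 3.24 in the 40 µg MWCNT group to 4.0 in the DM group. The 12 groups of later months lay between 2.48 (80 µg MWCNT at 12 months) and 3.01 (crocidolite at 6 months). DM at 1 month stood 0.46 above the next group, 80 µg MWCNT at 1 month, which is 0.88 of the larger SD of that pair. All other neighbours in the order stood 0.0012 to 0.23 apart, at most 0.45 of the larger SD, so no neighbours differed beyond their spread. DM at 1 month was the highest of the 18 groups for 8 of the 9 genes. The exception was Klrc2, whose highest group was 10 µg MWCNT at 1 month (1.97 ± 0.55, SD, n = 6).

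**Figure D1:**
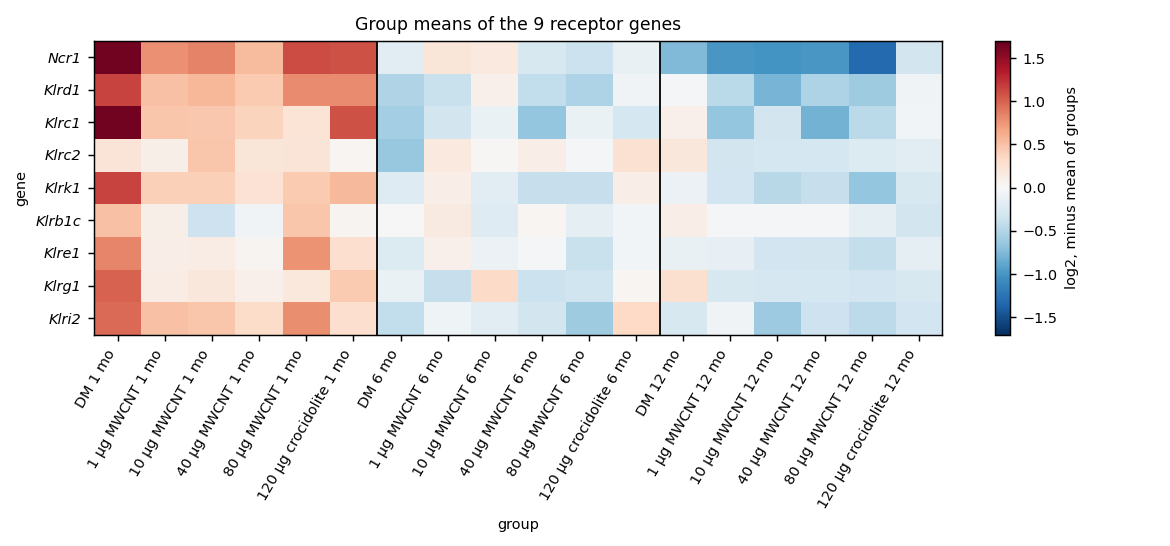
Mean log2 expression of each receptor gene (rows) in each of the 18 groups (columns, by month), minus the gene's mean over the groups. The 6 columns of 1 month are the 6 highest for 4 genes (Ncr1, Klrd1, Klrc1 and Klrk1), with Ncr1 and Klrc1 of DM mice at 1 month at 6.45 and 4.49, and Klrb1c and Klrc2 show little pattern.

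Among DM mice, which received no fibres, Ncr1 ranged from 3.51 to 5.39 (median 4.66) in DM mice at 6 months and from 3.13 to 4.74 (median 4.14) at 12 months, against 5.99 to 6.84 (median 6.44) at 1 month. No DM mouse of either later month reached the lowest mouse of 1 month. The difference was -1.83 ± 0.39 (log2, standard error) at 6 months, with a limma adjusted p of 0.0128, and -2.39 ± 0.39 at 12 months, with an adjusted p of 6.43e-05. Ncr1 at 12 months was 5.24-fold lower than at 1 month. Ranked by the log2 difference among all 23521 probe sets, its fall had rank 1 in the 12-month comparison and rank 4 in the 6-month comparison.

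Klrd1 (CD94), the partner that carries NKG2 proteins to the surface, ranged from 3.27 to 4.87 (median 4.15) in DM mice at 6 months and from 3.70 to 5.08 (median 4.77) at 12 months, against 5.32 to 6.34 (median 5.73) at 1 month. Here too neither later month overlapped with 1 month. The differences were -1.66 ± 0.29 (adjusted p = 0.00195, limma) at 6 months and -1.16 ± 0.29 (adjusted p = 0.0339) at 12 months. Klrc1 (NKG2A), the inhibitory partner of Klrd1 that binds the non-classical MHC molecule Qa-1, ranged from 0.99 to 3.23 (median 2.33) in DM mice at 6 months and from 2.28 to 4.30 (median 2.87) at 12 months, against 4.03 to 5.22 (median 4.37) at 1 month. No mouse of 6 months reached those of 1 month, and at 12 months 1 mouse of 8 lay within their range. The 6-month difference, -2.22 ± 0.42 (adjusted p = 0.00315, limma), had rank 1 among the falls of all probe sets, and the 12-month difference was -1.56 ± 0.42 (adjusted p = 0.0535). Klrc2 (NKG2C), the activating partner of Klrd1, ranged from 0.44 to 1.73 (median 0.70) in DM mice at 6 months and from 0.65 to 2.68 (median 1.65) at 12 months, against 0.43 to 2.48 (median 1.93) at 1 month. The months overlapped, and it passed in neither comparison (-0.86 ± 0.32, adjusted p = 0.126, limma, and -0.02 ± 0.32, adjusted p = 0.99).

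Klrk1 (NKG2D), an activating receptor for stress-induced ligands, ranged from 2.05 to 3.57 (median 2.60) in DM mice at 6 months and from 2.31 to 3.19 (median 2.83) at 12 months, against 2.84 to 4.84 (median 4.22) at 1 month. The lowest DM mouse of 1 month lay among the later mice, and the others lay above nearly all of them. The differences were -1.36 ± 0.29 (adjusted p = 0.0128, limma) and -1.24 ± 0.29 (adjusted p = 0.024). Klri2, which pairs with the Klre1 product in an activating receptor, ranged from 1.49 to 3.54 (median 2.64) in DM mice at 6 months and from 1.84 to 3.14 (median 2.99) at 12 months, against 3.40 to 4.89 (median 3.91) at 1 month. Only the 12-month mice stood wholly below those of 1 month. Its differences were -1.38 ± 0.33 (adjusted p = 0.0231, limma) and -1.24 ± 0.33 (adjusted p = 0.0501). Klre1, the shared partner, ranged from 1.76 to 3.14 (median 2.24) in DM mice at 6 months and from 1.79 to 2.99 (median 2.24) at 12 months, against 2.22 to 4.12 (median 3.41) at 1 month, so the months overlapped. It fell by 1.06 ± 0.25 (adjusted p = 0.0196, limma) and by 0.96 ± 0.25 (adjusted p = 0.0386).

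Klrg1, an inhibitory receptor for cadherins found on mature NK cells and on effector T cells, ranged from 1.74 to 3.50 (median 2.27) in DM mice at 6 months and from 1.79 to 4.33 (median 2.73) at 12 months, against 2.57 to 4.92 (median 3.35) at 1 month. The months overlapped. It fell at 6 months (-1.12 ± 0.30, adjusted p = 0.0424, limma) and did not pass at 12 months (-0.73 ± 0.30, adjusted p = 0.254). Klrb1c (NK1.1), an activating receptor that serves as the standard NK cell marker of C57BL/6 mice, ranged from 1.44 to 3.30 (median 1.97) in DM mice at 6 months and from 1.49 to 3.26 (median 2.07) at 12 months, against 1.75 to 3.60 (median 2.72) at 1 month. The months overlapped over most of their range, and it passed in neither comparison (-0.49 ± 0.31 and -0.38 ± 0.31, adjusted p = 0.446 and 0.639, limma).

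**Figure D2:**
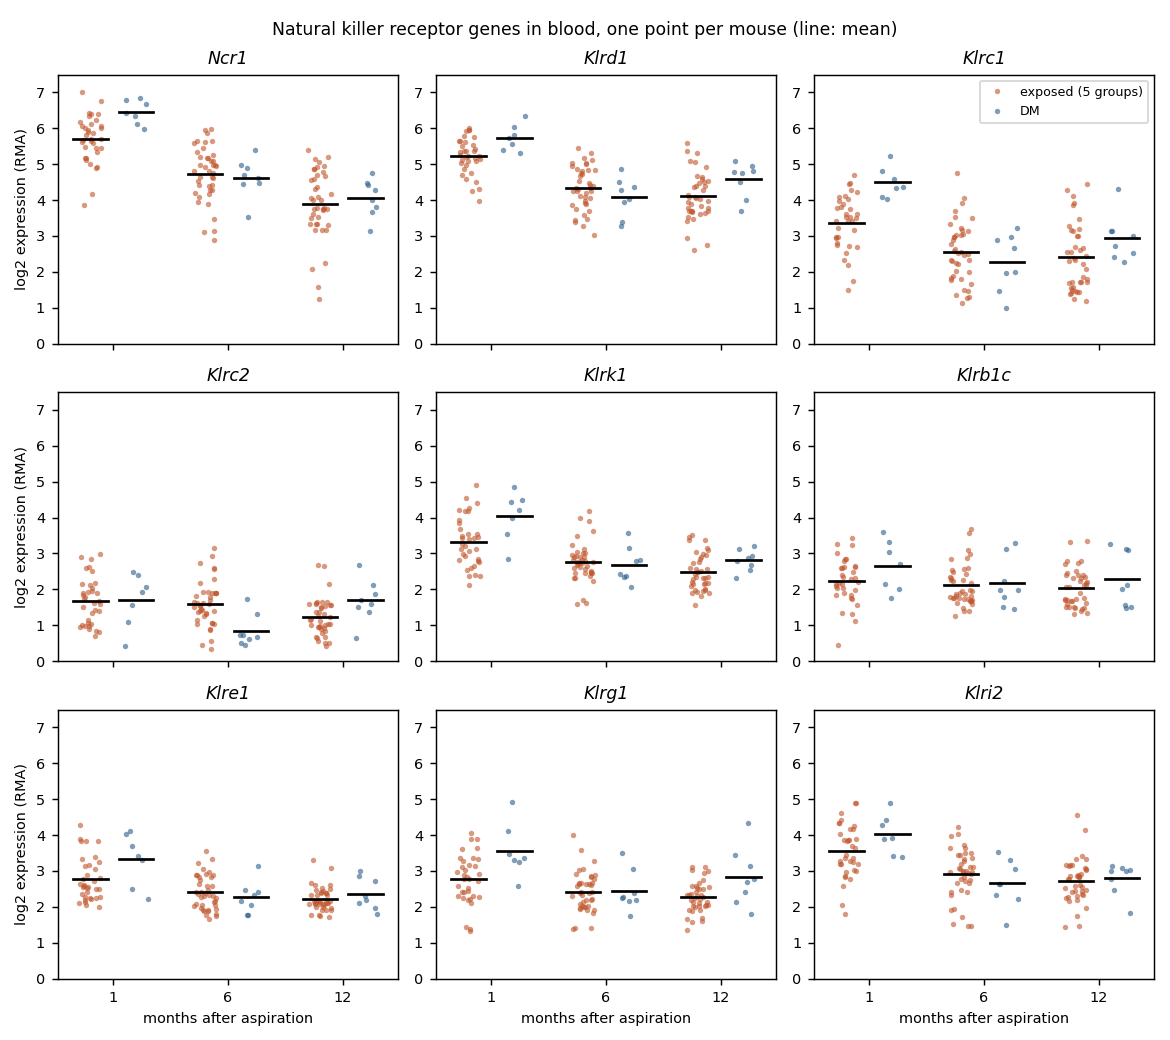
Log2 expression of each receptor gene in every mouse at 1, 6 and 12 months after aspiration, with exposed mice (5 groups together) and DM mice of the same month side by side, and a line at each mean. Ncr1 and Klrd1 of the DM mice at 6 and at 12 months lie wholly below those of 1 month, and Klrc2 and Klrb1c overlap throughout.

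In all, 7 of the 9 genes fell in DM mice at 6 months, when 3.94% of all probe sets were called at an adjusted p under 0.10, and 6 of 9 fell at 12 months, when 1.51% were called. The median log2 difference of the 9 genes was -1.36 at 6 months and -1.16 at 12 months, against 0.03 and 0.05 over all probe sets. At an unadjusted p under 0.05 the counts were 8 (background 16.3%) and 7 (background 13%). Between 12 and 6 months 0 of the 9 genes were called by limma or by the methods' analysis of variance (limma background 0.068%). There 1 gene, Klrc2, had an unadjusted p under 0.05 and was higher at 12 months (background 7.79%). The mice did not overlap with those of 1 month for 3 genes at 6 months (Ncr1, Klrd1 and Klrc1) and 3 at 12 months (Ncr1, Klrd1 and Klri2), while 0.48% and 0.391% of all probe sets did not overlap. Both comparisons share the 7 DM mice of 1 month. Of these, replicate 6 had the highest Ncr1, Klrb1c, Klrg1 and Klri2, and without it 5 genes were called at 6 months and 1, Ncr1, at 12 months. Without replicate 2 of the 12-month mice, 3 were called at 12 months.

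The exposed mice gave the same comparison in animals that share no DM mouse. It was added after the data had been seen, as the mean over the 5 exposed groups. Ncr1 averaged 3.89 ± 0.96 (SD, n = 40) in exposed mice at 12 months and 4.74 ± 0.76 (n = 41) at 6 months, against 5.70 ± 0.66 (n = 35) at 1 month. With the groups weighted equally it fell by 0.95 ± 0.17 at 6 months (adjusted p = 0.000441, limma) and by 1.79 ± 0.17 at 12 months (adjusted p = 2.05e-14), where its fall again had rank 1 of all 23521 probe sets. Klrd1 fell by 0.88 ± 0.13 and 1.11 ± 0.13 (adjusted p = 1.75e-06 and 2.31e-10, limma), and Klrc1 by 0.82 ± 0.19 and 0.98 ± 0.19 (adjusted p = 0.0129 and 4.41e-05). Klrk1 fell by 0.56 ± 0.13 and 0.83 ± 0.13, and Klri2 by 0.63 ± 0.15 and 0.83 ± 0.15 (adjusted p = 0.0161 and 1.29e-05). These 5 receptors were lower at both later months. Klre1 and Klrg1 did not pass at 6 months (-0.36 ± 0.11, adjusted p = 0.105, and -0.35 ± 0.13, adjusted p = 0.194, limma) and fell by 0.54 ± 0.11 and 0.49 ± 0.13 at 12 months. Klrc2 was -0.10 ± 0.14 at 6 months (adjusted p = 0.78, limma) and fell at 12 months by 0.47 ± 0.14 (adjusted p = 0.0123), and Klrb1c passed at neither month (-0.09 ± 0.14 and -0.15 ± 0.14).

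That made 5 of 9 genes lower at 6 months (background 1.27%) and 8 of 9 at 12 months, where 26.2% of all probe sets were called. At an unadjusted p under 0.05 the counts were 7 (background 14.5%) and 8 (background 32.9%). The median difference of the 9 genes was -0.56 and -0.83, against 0.02 and 0.02 over all probe sets. Between 12 and 6 months, 2 genes were lower, Ncr1 by 0.85 ± 0.17 (adjusted p = 0.00058, limma) and Klrc2 by 0.37 ± 0.14 (adjusted p = 0.0759), beside a background of 12.3% (3 genes at an unadjusted p under 0.05, background 23.2%). Array spread, taken as the distance between the quartiles of the deviations from each probe set's median, moved with these months. It averaged 0.64 to 0.67 in the 5 exposed groups at 12 months and 0.54 to 0.59 at 6 months, against 0.52 to 0.59 at 1 month. Fitted with it, 0 genes were called between 12 and 6 months and 7 between 12 and 1 month. Its mean in DM mice was 0.57 at 12 months and 0.56 at 6 months, against 0.58 at 1 month.

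Within each exposure, 9 of 9 genes had a lower mean at 12 months than at 1 month in the 1 µg, 80 µg and crocidolite groups, and 8 of 9 in the 10 µg and 40 µg groups. The median difference of the 9 genes was -0.56 at 1 µg, -0.77 at 10 µg, -0.63 at 40 µg and -1.09 at 80 µg of MWCNT and -0.71 with crocidolite. Between these months 1 gene each did not overlap in the 10 µg mice (Ncr1, background 0.795%), the 80 µg mice (Klrd1, background 0.748%) and the crocidolite mice (Ncr1, background 0.0298%). At 6 months 7 to 9 of the 9 genes had lower means than at 1 month in each exposed group, and 9 of 9 overlapped, beside 0.0128% to 0.106% of all probe sets that did not, so a count of 0 does not set the receptors apart.

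**Figure D3:**
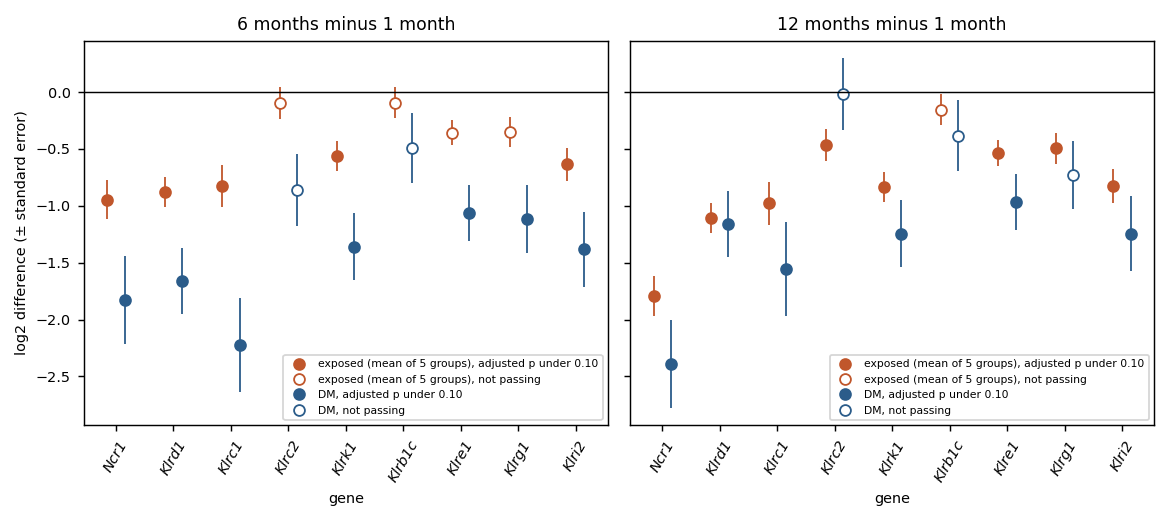
Log2 difference (± standard error) of each receptor gene at 6 months and at 12 months from 1 month, in exposed mice (mean of 5 groups) and in DM mice, with filled points at a limma adjusted p under 0.10. Ncr1 shows the deepest fall at 12 months, -1.79 in exposed and -2.39 in DM mice, and Klrb1c is open in all 4 comparisons.

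The change of DM mice minus that of exposed mice, a comparison added after the data had been seen, was tested as a difference of its own. Between 6 and 1 months, 9 of 9 genes changed further downward in DM mice, with a median of -0.77, against -0.01 over all probe sets. The largest was that of Klrc1 (-1.40 ± 0.46, adjusted p = 0.758, limma). By limma 0 of 9 genes were called (background 0%), while 8 had an unadjusted p under 0.05 (background 6.13%). Between 12 and 1 months, 0 genes were called (background 0%) and 0 had an unadjusted p under 0.05 (background 4.85%). Both rest on the same 7 DM mice of 1 month.

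At 1 month, exposed mice had lower receptor means than DM mice, by amounts that did not pass after adjustment. Klrc1 ranged from 2.18 to 4.70 (median 3.24) at 1 µg, from 2.33 to 3.81 (median 3.41) at 10 µg, from 1.49 to 4.04 (median 3.56) at 40 µg, from 1.73 to 4.10 (median 3.17) at 80 µg and from 2.97 to 4.48 (median 4.22) with crocidolite, against 4.03 to 5.22 (median 4.37) in DM mice. Below the lowest DM mouse lay 6 of 8 mice at 1 µg, 6 of 6 at 10 µg, 5 of 6 at 40 µg, 7 of 8 at 80 µg and 3 of 7 with crocidolite. The share of all probe sets without overlap was not counted for these comparisons, so the 6 of 6 does not set Klrc1 apart. The differences from DM were -1.18 ± 0.42 at 1 µg, -1.18 ± 0.45 at 10 µg, -1.27 ± 0.45 at 40 µg, -1.41 ± 0.42 at 80 µg and -0.55 ± 0.43 with crocidolite, with limma adjusted p from 0.304 to 1. Ncr1 averaged 5.60, 5.66, 5.36 and 5.93 at 1, 10, 40 and 80 µg and 5.90 with crocidolite, against 6.45 in DM mice. Its differences lay between -1.10 ± 0.42 (40 µg) and -0.53 ± 0.39 (80 µg), with adjusted p from 0.327 to 1 (limma). Differences of Klrk1 lay between -0.90 and -0.59 in the 5 groups, and those of Klrg1 between -0.92 and -0.56. For 8 of the 9 genes 5 of 5 exposed groups had a lower mean than DM, and Klrc2 was the exception, at -0.18 to 0.26.

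By limma and by the methods' analysis of variance, 0 of 9 genes were called in each of these 5 comparisons (limma background 0.0085% at 1 µg and 0% in the other 4). At an unadjusted p under 0.05, 6 genes were lower at 1 µg (background 6.44%), 5 at 10 µg (3.69%), 6 at 40 µg (11.5%), 3 at 80 µg (1.87%) and 2 with crocidolite (3.87%). The median difference of the 9 genes was -0.72, -0.74, -0.79 and -0.35 at 1, 10, 40 and 80 µg and -0.56 with crocidolite, against -0.02 to 0.02 over all probe sets. The 5 comparisons share the same 7 DM mice and are not separate evidence. With the 5 exposed groups averaged, a comparison added after the data had been seen, 0 genes were called by limma (background 0.0128%) and 6 had an unadjusted p under 0.05 (background 5.15%), with Klrc1 at -1.12 ± 0.33 (adjusted p = 0.718) and Ncr1 at -0.77 ± 0.31 (adjusted p = 0.903). The trend over MWCNT dose, fitted from DM to 80 µg, called 0 genes at 1 month (background 0%), with 3 at an unadjusted p under 0.05 (background 2.5%), Klrc1, Klrg1 and Klrk1, each with a negative slope. NK cell, T cell and neutrophil markers had lower means in all 5 exposed groups. The mean NK cell marker level, from a list that includes Ncr1 and Klrb1c, was 4.02 to 4.52 in the exposed groups (mice from 3.36 to 5.23). It was 4.84 in DM mice (4.23 to 5.51). The mean T cell marker level was 4.68 to 4.99 in the exposed groups (mice from 3.84 to 5.57), against 5.25 in DM mice (4.83 to 5.84). The mean neutrophil marker level was 5.81 to 5.97 in the exposed groups (mice from 4.53 to 6.86), against 6.20 in DM mice (5.68 to 7.02). Means of the B cell, monocyte, erythroid and platelet lists lay on both sides of DM. With the 5 groups averaged, 0 of 10 T cell markers and 0 of 8 neutrophil markers passed by limma (3 and 0 at an unadjusted p under 0.05), and their part in the result was not tested.

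**Figure D4:**
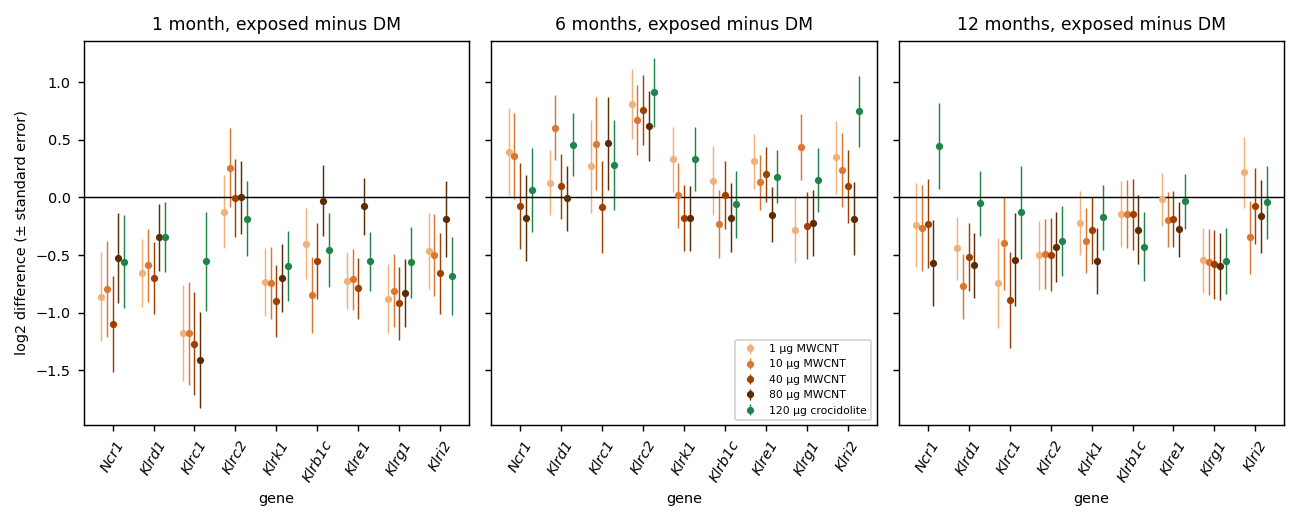
Log2 difference (± standard error) of each receptor gene between each exposed group and the DM group of the same month, at 1, 6 and 12 months. Most points lie below 0 at 1 month, around 0 at 6 months with Klrc2 above it (0.62 to 0.91), and most lie below 0 at 12 months, with Ncr1 of crocidolite mice (0.45) and Klri2 at 1 µg (0.22) above it. The median of the 9 genes was nearer 0 at 12 months than at 1 month in 4 of the 5 groups, and further from it at 80 µg (-0.54 at 12 months, against -0.35 at 1 month).

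At 6 months 1 to 7 of the 9 genes had a lower mean than DM in the 5 exposed groups, so the groups shared no direction across genes. Called were 0 of 9 genes in each of the 5 comparisons with DM by limma and by the methods' analysis of variance (limma background 0% in all 5). Klrc2 was higher in all 5 exposed groups at an unadjusted p under 0.05, by 0.81 ± 0.31 at 1 µg, 0.67 ± 0.31 at 10 µg, 0.76 ± 0.31 at 40 µg, 0.62 ± 0.31 at 80 µg and 0.91 ± 0.30 with crocidolite (limma adjusted p = 1 in each). Its DM group of 6 months, at 0.84 ± 0.45 (SD, n = 8), was the lowest of the 18 groups, is shared by the 5 comparisons, and lies at the level of the olfactory probe sets, whose median was 0.90. Beside Klrc2, Klrd1 at 10 µg (0.60 ± 0.28) and Klri2 with crocidolite (0.75 ± 0.31) had an unadjusted p under 0.05. This gave 1, 2, 1 and 1 genes at 1, 10, 40 and 80 µg (background 3.36%, 3.16%, 2.81% and 3.74%) and 2 with crocidolite (4.04%). The dose trend called 0 genes by limma (background 0%), and 0 had an unadjusted p under 0.05 (background 3.34%).

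At 12 months, 9 of 9 genes had lower means at 10, 40 and 80 µg of MWCNT than in DM mice and 8 of 9 at 1 µg and with crocidolite, without a call. Klrd1 ranged from 2.75 to 5.58 (median 3.90) at 1 µg, from 2.62 to 5.10 (median 3.69) at 10 µg, from 3.42 to 4.58 (median 4.10) at 40 µg, from 3.47 to 4.65 (median 4.0) at 80 µg and from 3.79 to 5.32 (median 4.57) with crocidolite, against 3.70 to 5.08 (median 4.77) in DM mice, so every group overlapped DM. Its differences were -0.44 ± 0.27, -0.77 ± 0.28, -0.52 ± 0.29 and -0.59 ± 0.28 at 1, 10, 40 and 80 µg and -0.05 ± 0.28 with crocidolite. The smallest adjusted p was 0.192 (limma), at 10 µg. Differences of Klrg1 lay between -0.60 and -0.55 in the 5 groups, with adjusted p from 0.324 to 1. Ncr1 was -0.57 ± 0.37 at 80 µg (adjusted p = 0.5, limma) and 0.45 ± 0.37 with crocidolite (adjusted p = 0.629).

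The counts of called genes at 12 months were 0 of 9 in each comparison by limma and by the methods' analysis of variance, where the limma background was 0% at 1 µg, 0.179% at 10 µg, 0.0425% at 40 µg, 1.22% at 80 µg and 2.48% with crocidolite. At an unadjusted p under 0.05 they were 0 genes at 1 µg (background 3.85%), Klrd1 alone at 10 µg (15.4%), Klrc1 alone at 40 µg (10.9%), Klrd1 and Klrg1 at 80 µg (14.3%) and 0 with crocidolite (15.1%). These counts lie near or below the background and are not a result about the receptors. In the dose trend, 6.18% of all probe sets and 0 of the 9 receptor genes were called by limma, although 9 of 9 had a negative slope (median -0.38, against -0.02 over all probe sets). There 0 had an unadjusted p under 0.05 (background 19.4%).

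NK cell, T cell, B cell, neutrophil and platelet markers also had lower means in all 5 exposed groups than in DM mice at 12 months. The mean NK cell marker level, from a list that includes Ncr1 and Klrb1c, was 3.35 to 3.55 in the exposed groups (mice from 2.71 to 4.14). It was 3.79 in DM mice (3.27 to 4.12). The mean T cell marker level was 3.99 to 4.41 in the exposed groups (mice from 3.46 to 5.30), against 4.58 in DM mice (4.23 to 5.14). The mean B cell marker level was 6.22 to 6.72 in the exposed groups (mice from 5.39 to 7.74), against 7.02 in DM mice (6.5 to 7.41). The mean neutrophil marker level was 5.38 to 5.77 in the exposed groups (mice from 4.52 to 6.57), against 6.04 in DM mice (5.72 to 6.86). Mice of the exposed and DM groups overlapped for each of these lists. The mean platelet marker level was 9.72 to 10.17 in the exposed groups (mice from 8.79 to 10.54), against 10.29 in DM mice (10.14 to 10.49). At 80 µg, 4 of 9 B cell and 1 of 10 T cell markers were lower by limma, beside the background of 1.22%, and with crocidolite 3 of 5 platelet markers and 1 of 3 erythroid markers were lower, beside 2.48%. Array spread averaged 0.64 to 0.67 in the exposed groups, against 0.57 in DM mice. The part of these cells and of array spread in the receptor differences was not tested.

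Crocidolite was set against 80 µg of MWCNT at each month. Ncr1 ranged from 3.33 to 5.40 (median 4.68) in crocidolite mice at 12 months, against 1.24 to 4.95 (median 3.67) in 80 µg MWCNT mice, with overlap. It was 1.02 ± 0.37 higher (adjusted p = 0.201, limma). Without MWCNT replicate 5, the highest of its group at 4.95, Ncr1 was called. At 6 months Klri2 was 0.93 ± 0.31 higher in crocidolite mice (3.40 ± 0.48, SD, n = 9) than in 80 µg MWCNT mice (2.47 ± 0.69, n = 8), with a limma adjusted p of 0.997. At 1 month Klrc1 was 0.86 ± 0.42 higher (3.94 ± 0.57 in crocidolite mice, n = 7, against 3.08 ± 0.76 in 80 µg MWCNT mice, n = 8), with a limma adjusted p of 0.958. These were the single genes at an unadjusted p under 0.05 at 12 months (background 13.9%), 6 months (4.4%) and 1 month (4.37%). Called were 0 genes by limma and by the methods' analysis of variance at each month (limma background 0.302% at 12 months and 0% at 6 and 1 months). Whether the effect of a material differed between months was tested by F tests in limma, which called 0 of 9 genes for 80 µg of MWCNT (background 0%), for crocidolite (0.0553%) and for the dose trend (0%). The genes at an unadjusted p under 0.05 in these tests were Klrc1 for 80 µg (background 6.34%), Klrc2 and Klri2 for crocidolite (9.14%) and 0 for the trend (7.22%).

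Other genes around the receptors were read from lists. Counts of genes that fell stand against the share of all probe sets called lower, which was 3.46% in DM mice at 6 months, 1.13% in DM mice at 12 months and 17.3% in exposed mice at 12 months, each against 1 month. Of 20 measured effector and identity genes of NK cells, 13 fell in DM mice at 6 months and 6 at 12 months, and 14 fell in exposed mice at 12 months. Prf1, the pore-forming perforin, fell by 1.41 ± 0.31 and 1.64 ± 0.31 in DM mice (adjusted p = 0.0128 and 0.00128, limma), and by 1.07 ± 0.14 in exposed mice at 12 months. Gzma, a granule protease, fell by 1.67 ± 0.33 and 1.25 ± 0.33 in DM mice and by 1.34 ± 0.15 in exposed mice at 12 months. The list's median was -0.88 and -0.43 in DM mice at 6 and 12 months, against 0.03 and 0.05 over all probe sets. Of 19 measured other surface receptors, 7 and 4 fell in DM mice and 11 in exposed mice at 12 months (medians -0.80, -0.52 and -0.37). Il2rb, a chain of the IL-2 and IL-15 receptors, fell by 1.88 ± 0.41 and 1.86 ± 0.41 in DM mice, and Il12rb2, a chain of the IL-12 receptor, by 1.45 ± 0.27 and 1.52 ± 0.27.

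Of the other lectin-like receptors of the NK gene complex, 14 of 21 listed genes had a probe set of their own, and 3 fell in DM mice at 6 months and 2 at 12 months, with 4 in exposed mice at 12 months, where 26.2% of all probe sets were called and 17.3% were lower. The last count is near that background. Klrb1f fell by 1.34 ± 0.31 and 1.33 ± 0.31 in DM mice and by 0.99 ± 0.14 in exposed mice at 12 months, and Klrb1b, an inhibitory receptor, by 1.20 ± 0.31 and 1.02 ± 0.31 in DM mice. The list's median was -0.26 and -0.29 in DM mice. This list holds probe sets near background, such as Klrh1 (mean 0.81 over all mice), Clec12b (0.81), Klra5 (0.91) and Klrc3 (0.98), beside an olfactory median of 0.90. Its median and counts therefore do not show whether these genes changed. Of 17 measured adaptor and signalling genes, 6 and 2 fell in DM mice and 9 in exposed mice at 12 months, with medians of -0.55, -0.14 and -0.27. Among them Zap70, a kinase shared with T cells, fell by 1.04 ± 0.26 and 0.90 ± 0.26 in DM mice. Of 13 measured ligands, 1 rose and 1 fell in DM mice at 6 months, and the median was -0.09. H2-K1, a classical MHC class I molecule, fell (-0.88 ± 0.25). H60c, a ligand of Klrk1, rose (0.56 ± 0.18), with DM means of 1.27 at 6 months and 0.71 at 1 month. The H60c probe set (mean 0.96 over all mice) stood at the level of the olfactory probe sets, whose median was 0.90. Its rise therefore does not show that this ligand changed. At 12 months 0 ligands passed in DM mice by limma (2 at an unadjusted p under 0.05), and 5 fell in exposed mice at that month.

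Some markers of other blood cells were lower at the same months, those of T cells in the largest share. In DM mice at 6 months 5 of 10 measured T cell markers fell, with 1 of 9 B cell, 2 of 8 monocyte, 1 of 8 neutrophil, 0 of 3 erythroid and 0 of 5 platelet markers. Their medians were -0.87, -0.62, -0.74, -0.75, 0.09 and 0.40 in that order. The mean T cell marker level of a mouse ranged from 4.09 to 4.83 there, against 4.83 to 5.84 in DM mice at 1 month, and the mean monocyte marker level from 5.16 to 6.60, against 6.24 to 7.22. At 12 months 2 of 10 T cell markers and 0 of 9 B cell, 0 of 8 monocyte and 0 of 8 neutrophil markers fell in DM mice and 2 of 5 platelet markers rose, with medians of -0.61, 0.17, -0.17, -0.26 and 0.54 in that order. Of all 23521 probe sets, 90 were called higher in that comparison. In exposed mice at 12 months 10 of 10 T cell, 5 of 9 B cell, 2 of 8 monocyte and 4 of 8 neutrophil markers fell, beside 26.2% of all probe sets called and 17.3% lower, so the monocyte count is near the background. The part of these cells in the receptor differences was not tested.

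**Figure D5:**
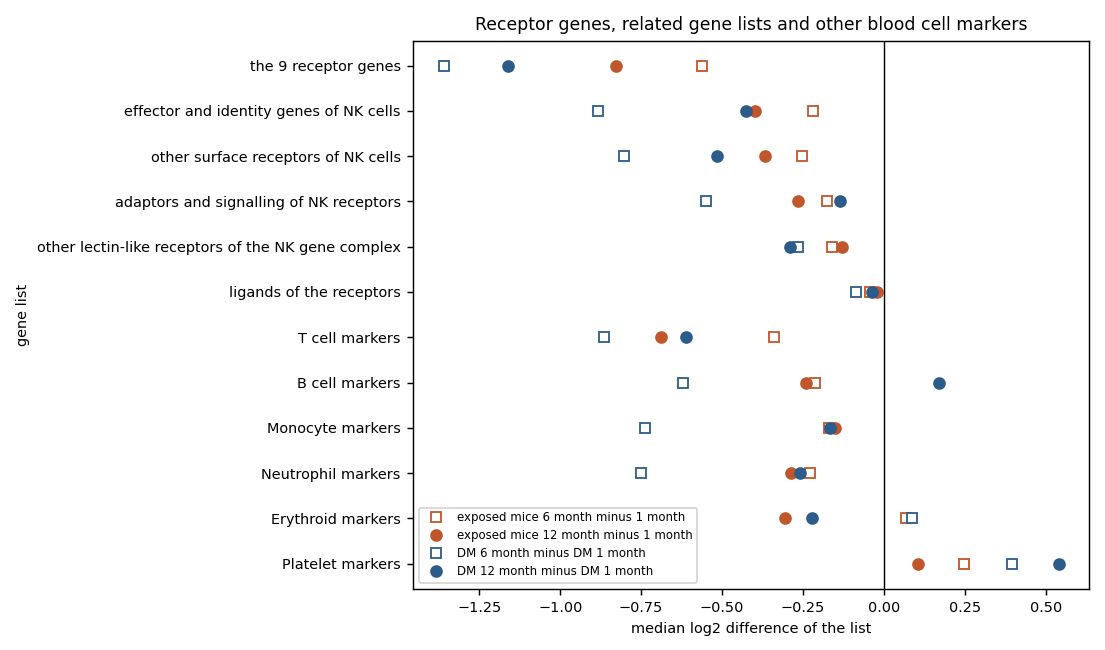
Median log2 difference of the 9 receptor genes, of related gene lists and of markers of other blood cell types (rows), at 6 and 12 months minus 1 month, in exposed mice and in DM mice. The 9 receptor genes have the lowest median of the lists plotted in each of the 4 comparisons, -1.36 and -1.16 in DM mice and -0.56 and -0.83 in exposed mice at 6 and 12 months, and platelet markers lie above 0. The related lists also hold probe sets at background, such as Klrh1 (mean 0.81 over all mice) and Tigit (0.88), below the olfactory median of 0.90. Such probe sets could show little change, so the order of the medians does not compare detectable genes alone. The list of 10 NK cell markers, which includes Ncr1 and Klrb1c, is not plotted. Its mean level in DM mice was 3.63 at 6 months and 3.79 at 12 months, against 4.84 at 1 month.

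Mouse by mouse the receptors differed in how closely they followed each other. Over all mice, as deviations from group means, Klrd1 correlated with Klrk1 at r = 0.63 (rho = 0.68), with Ncr1 at 0.60 (rho = 0.59) and with Klrc1 at 0.54 (rho = 0.54). Over all 36 pairs the median r was 0.22, and Klrc2 and Klrb1c followed the others weakly, with r of -0.07 to 0.16 for Klrc2 and of -0.05 to 0.14 for Klrb1c. With array spread taken out the median was 0.24, and without the mice with low-correlation arrays 0.23. These are descriptions over mice whose genes were read from the same arrays. The mean of the 9 genes followed the 8 NK cell markers that are not among them at r = 0.77, monocyte markers at 0.69, T cell markers at 0.57 and B cell markers at 0.49.

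Of 3620 named genes with a mean above 4, the 10 most like the mean of the 9 receptors over the 18 group means were Il2rb (r = 0.97), Satb1 (0.96), Gzma (0.96), Mlxip (0.95), Id2 (0.95), Samhd1 (0.95), Chd8 (0.95), Plcb2 (0.95), Zbp1 (0.95) and Rasgrp1 (0.95). Over all mice, as deviations from group means, they were Slamf7, Nabp1, St8sia4, Ctsc, Il2rb, Id2, Ccl5, Ifngr1, Clec4a3 and Rars, with r from 0.66 to 0.68. Id2 and Il2rb were in both sets.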

How the data were processed

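RNA of whole blood was hybridized to Affymetrix Mouse Gene ST 2.1 arrays. The deposited log2 values were computed by the authors with robust multi-array averaging (RMA) in oligo. Besides oligo and RMA, limma is listed by the submitters, and versions are not given in the sources used here. The table holds 41345 probe sets on 144 arrays. Arrays that share a mouse number within a group (5 cases) were averaged. Probe sets were named from the platform annotation and updated through RefSeq (GRCm38.p6); 23521 had 1 symbol, 1820 several and 16004 none. Promoter windows came from RefSeq.

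The 18 group means were fitted with limma 3.58.1 in R 4.3.3 over all 23521 probe sets, with Benjamini-Hochberg adjustment within each comparison, and calls were made at an adjusted p under 0.10. Standard errors come from this fit. P-values take the mice as labelled and judge differences of group means against the spread between mice, pooled over the 18 groups. The number of arrays limits the precision. The fit was tested on simulated data.

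The 9 genes, the lists and the tests were chosen with earlier results of these data known. All 9 genes are named, with up to 4 genes per list and comparison, by smallest p. Genes of like pattern were those of highest r, with predicted genes, microRNA, snoRNA and olfactory receptor genes passed over. Alternatives were another normalization, array weights, only the compared groups, the handling of repeated mouse numbers, the array number (1 to 96 and 97 on) as a block and as strata, arrays of low correlation (13 with a median correlation under 0.85), array spread, a filter on dim probe sets (mean of at least 3), the methods' analysis of variance and each mouse left out. Labels name no plate or batch.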

Additional observations from a re-analysis of the deposited data

Results flagged for a closer look

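In 162 groups of mice, 1 for each gene and group, the highest or lowest mouse stood apart from the others in 12, by a rule that chance meets in about 5% of groups. Above their groups stood Klrc1 of 40 µg MWCNT replicate 2 at 12 months (3.86, next 2.39, an array of low correlation), Klrc1 of DM replicate 1 at 12 months (4.30, next 3.15), Klrk1 of 1 µg MWCNT replicate 2 at 1 month (4.91, next 3.67), Klrb1c of 80 µg MWCNT replicate 2 at 6 months (3.58, next 1.96), Klre1 of 80 µg MWCNT replicate 4 at 6 months (3.23, next 2.30), Klrg1 of 1 µg MWCNT replicate 1 at 6 months (4.0, next 2.14) and replicate 5 at 12 months (3.10, next 2.51), and Klri2 of 1 µg MWCNT replicate 8 at 12 months (4.56, next 3.18). Below their groups stood Klrd1 of 10 µg MWCNT replicate 3 at 1 month (3.98, next 5.12), Klrb1c of 1 µg MWCNT replicate 4 at 1 month (1.11, next 2.03), Klri2 of 80 µg MWCNT replicate 2 at 1 month (2.05, next 3.44) and Klri2 of 40 µg MWCNT replicate 4 at 6 months (1.46, next 2.66). No test of a difference between groups in their changes passed for these genes.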

How the results depend on the processing

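Of 653 alternative counts of called receptor genes, 632 stayed within 1.5 times the count reported. Most of the 33 results behind them had a reported count of 0, and 0 staying 0 entered as unchanged. The share therefore says little about how stable the calls themselves were. Of 1880 alternative values of single genes, 1790 kept their direction and their side of the threshold. With dim probe sets left out only Ncr1, Klrd1 and Klri2 were tested, and 3 of these 3 were called at 6 and at 12 months against 1 month, in exposed mice and in DM mice. Klrd1 was called at 10 µg of MWCNT against DM at 12 months (1 gene, reported 0) with array weights, with every array as its own mouse and with dim probe sets left out. Ncr1 was called in crocidolite against 80 µg MWCNT at 12 months (1 gene, reported 0) without arrays of low correlation. In exposed mice at 12 against 6 months the count was 1 with array weights, without arrays of low correlation and with dim probe sets left out, and 0 when array spread entered the fit (reported 2).

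Mice of 12 months and DM mice of 1 and 6 months were left out in turn. The count was then 5 to 8 for DM mice at 6 months and 1 to 6 at 12 months against 1 month. It was 1 to 2 for exposed mice at 12 against 6 months and 0 to 1 at 10 µg against DM at 12 months (1 without 10 µg replicate 6). For crocidolite against 80 µg MWCNT at 12 months it was 0 to 1. It did not change in the other comparisons that involve 12 months, or in the change of DM minus exposed mice. No mouse was left out for comparisons between groups within 1 month or within 6 months, including the dose trends. The same holds for exposed mice at 6 against 1 month and for the F tests, so their dependence on single mice was not tested. The array number as a block left 7 and 6 calls in DM mice at 6 and 12 months. Within arrays 1 to 96, 9 and 9 of 9 genes were lower in DM mice at 6 and 12 months (5 and 1 called), and 4 and 8 were called in exposed mice. Within arrays 97 on, with 2 DM mice at 1 month, 7 and 9 were lower (0 called). Exposed mice against 1 month could not be fitted there, since no crocidolite array of 1 month lies in it.

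Within arrays 97 on the sign turned for Klrc2 at 10 µg against DM at 6 months (-0.35), for Klrc2 and Klrb1c in DM mice at 6 against 1 month (0.074 and 0.45), for Klrc2 in DM mice at 12 against 6 months (-0.086) and for Klrk1 in exposed mice at 12 against 6 months (0.052). Those arrays hold 1 DM mouse and 1 crocidolite mouse of 6 months, so each of these turns rests at least in part on a group of 1 mouse. Klrc2 in DM mice at 12 against 1 month (reported -0.02) was 0.034 with the first array of each repeated mouse and -0.23 to 0.13 with a mouse left out. The cause was not tested. No gene had another probe set of its own, so that alternative was not run. No paired analysis was possible because the labels give no number that pairs mice across groups. The number of arrays and the low signal of Klrc2 limit what could be detected.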
